A study of Mus musculus with 11 samples.

Results

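The 36 genes described here mark T cells, or natural killer cells and other cytotoxic lymphocytes, and were found by symbol among 24515 genes measured in mouse lung tumors and normal lungs. They comprise 22 genes of T cells (the T cell receptor complex and its coreceptors, adhesion and costimulatory receptors, receptor signaling, naive cell and homing genes, and regulatory T cell genes) and 14 genes of natural killer and effector cells (natural killer receptors, granule proteins, effector regulators and cytokines). RNA was sequenced from 6 lung tumors, tagged ADC (3) or ADN (3) in the sample titles, and from 5 normal lungs that lay next to them. All animals carried the Gprc5a-/- deletion in every cell and had received nicotine-derived nitrosamine ketone (NNK), a tobacco carcinogen, at 50 mg/kg, 3 times per week for 8 weeks, so the normal lungs share both the genotype and the exposure and are not untreated wild-type lungs. Mouse m335, killed 4 months after NNK, gave an ADC and an ADN tumor that share its normal lung. Mouse m368 (6 months) and mouse m350 (7 months) each gave an ADN tumor. The remaining ADC tumors came from mice m372 and m378 (both 7 months). Libraries are named by tag and mouse, as in ADC m335 and normal m372. The labels give no sex, no age at dosing and no meaning for the tags. Each tumor is 1 library, so ADC and ADN tumors come almost wholly from different mice.

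T cells recognise antigen through a receptor that signals through the CD3 chains, with CD4 on helper and regulatory cells and CD8 on cytotoxic cells. Natural killer cells lack that receptor and balance activating against inhibitory surface receptors, but kill by the same route as cytotoxic T cells, releasing perforin and granzymes from granules. Both cell types reside in and patrol normal lung, and lung tumors may contain, exclude or surround them in organised lymphoid structures. Immature T cells are made in the thymus, which lies close to the lungs in the chest and expresses genes, such as the recombinases Rag1 and Rag2, that mature T cells do not use.

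Library totals lay between 19938822 counts (normal lung of mouse m372) and 46987587 counts (ADC tumor of mouse m372), and the 36 members took between 0.0108% and 0.175% of them. Both extremes of that share were in ADC tumors, that of mouse m372 and that of mouse m335. Gprc5a lay at 0 to 0.642 CPM (counts per 1000000 counts of the scaled library size) in all 11 libraries. Alveolar type 2 cell genes, which mark a cell type of the lung epithelium, summed to 33453 CPM in ADC m335. They summed to between 98308 and 130166 CPM in the other 5 tumors and to between 39775 and 54131 CPM in the normal lungs. B cell genes summed to 1627 CPM in that ADC tumor, against 139.8 to 299 CPM in the other tumors and 191 to 579.6 CPM in the normal lungs. Endothelial genes summed to between 495 and 777 CPM in the tumors and to between 2442 and 4037 CPM in the normal lungs, with all 7 members of that list lower in tumors. Erythrocyte genes summed to 1212 to 6026 CPM in the tumors and 7386 to 31697 CPM in the normal lungs. Skeletal muscle genes reached 539 CPM in normal m335. The part of these other cell types in the member values was not tested. In mouse m335, the Y-linked gene Ddx3y stood at 43.3 CPM (ADC), 27.9 CPM (ADN) and 17.7 CPM (normal), while Xist, which is expressed from the inactive X chromosome, lay at 8.89, 16.7 and 1.22 CPM in the same libraries. The source of the Xist reads in its tumors was not tested.

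Thymus genes were found in the normal lungs of mice m372 and m350. Rag1 had 212 CPM in normal m372 and 19.5 CPM in that of mouse m350, and at most 0.425 CPM in the other 9 libraries. Dntt, which adds bases at receptor gene joints in immature lymphocytes, had 86.9 and 9.16 CPM in those normal lungs and at most 0.466 CPM elsewhere. Ptcra, the surrogate chain of the immature T cell receptor, had 4.13 and 0.402 CPM there and at most 0.143 CPM elsewhere. Genes of thymic epithelium were present in the same libraries: Psmb11, a proteasome subunit of the thymic cortex, had 19.2 and 0.897 CPM, and Foxn1, the regulator that forms thymic epithelium, had 3.59 and 0.402 CPM. For 9 thymus genes the level in normal m350 was between 4.67% and 11.2% of that in normal m372. Immature T cells express most of the 22 T cell genes, so values of these genes in those normal lungs are marked where they bear on a comparison.

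The members split into 2 sets in normal m372. It had the highest level of the 5 normal lungs for 16 of 22 T cell genes and for 0 of 14 natural killer and effector genes, where 21.1% of all genes tested were highest there. It had the lowest level for 13 of 14 natural killer and effector genes and for 2 T cell genes, Ccr7 and Foxp3, where 24.4% of all genes were lowest there. Cd8b1 and Tcf7 stood at 79.4 and 305 CPM in that lung, against at most 17.4 and 96.5 CPM in the other normal lungs. Prf1 and Gzma were lowest there, at 4.09 and 9.53 CPM, against at least 10.1 and 17.0 CPM in the others.

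**Figure D1:**
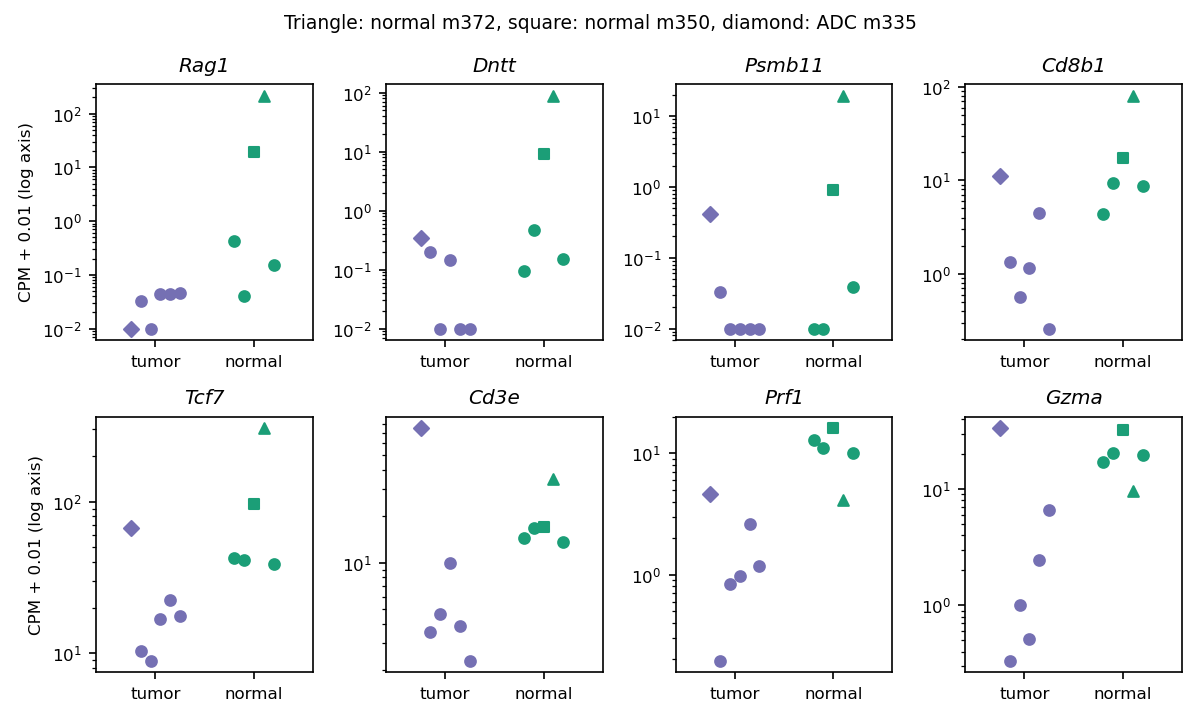
Levels (CPM plus 0.01, log axis) of 3 thymus genes (Rag1, Dntt, Psmb11), 3 T cell genes (Cd8b1, Tcf7, Cd3e) and 2 granule genes (Prf1, Gzma), with 1 point per library, 6 tumors left and 5 normal lungs right in each panel. The triangle (normal lung of mouse m372) is highest for the thymus genes, Cd8b1 and Tcf7 and lowest of the normal lungs for Prf1 and Gzma, and the diamond (ADC tumor of mouse m335) is the highest tumor for all 3 T cell and both granule genes.

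Tumor by tumor, 5 of the 6 tumors held less RNA of nearly all members than the normal lung of the same mouse, and ADC m335 held more. In bulk RNA, fewer cells of a type and less RNA per cell cannot be told apart. In the 5 tumors other than ADC m335, 32 of 36 members lay below the own normal lung in every tumor, against 19.6% of all genes tested. The exceptions were Cd5, Cd6, Foxp3 and Il2ra. For 28 of 36 members those 5 tumors lay below all 5 normal lungs, against 11.5% of all genes. In ADC m335, 33 of 36 members lay above the own normal lung, against 49.4% of all genes, and 24 of 36 members (15 T cell genes and 9 natural killer and effector genes) had their highest level of all 11 libraries, against 18.7% of all genes. Only Lef1, Ncr1 and Prf1 lay below the own normal lung in 6 of 6 tumors, a pattern of 13.8% of all genes.

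The median log2 ratio of the 36 members to the own normal lung was 1.99 in ADC m335, -3.05 in ADC m372, -2.0 in ADC m378, -1.10 in ADN m335, -2.07 in ADN m368 and -2.67 in ADN m350. The median over all 15175 genes tested lay between -0.13 and 0.00 in those tumors. T cell genes and natural killer and effector genes moved apart in size. The T cell median was -0.62 in ADN m335 and -3.29 in ADC m372, whose normal lung carried the thymus genes. The natural killer and effector median lay between -3.28 and -2.57 in all 5 of these tumors, and 14 of 14 of its genes were below the own normal lung in each. The T cell median was the higher one in 4 of these 5 tumors, ADC m372 being the exception, and also in ADC m335, at 2.35 against 1.23 for natural killer and effector genes.

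**Figure D2:**
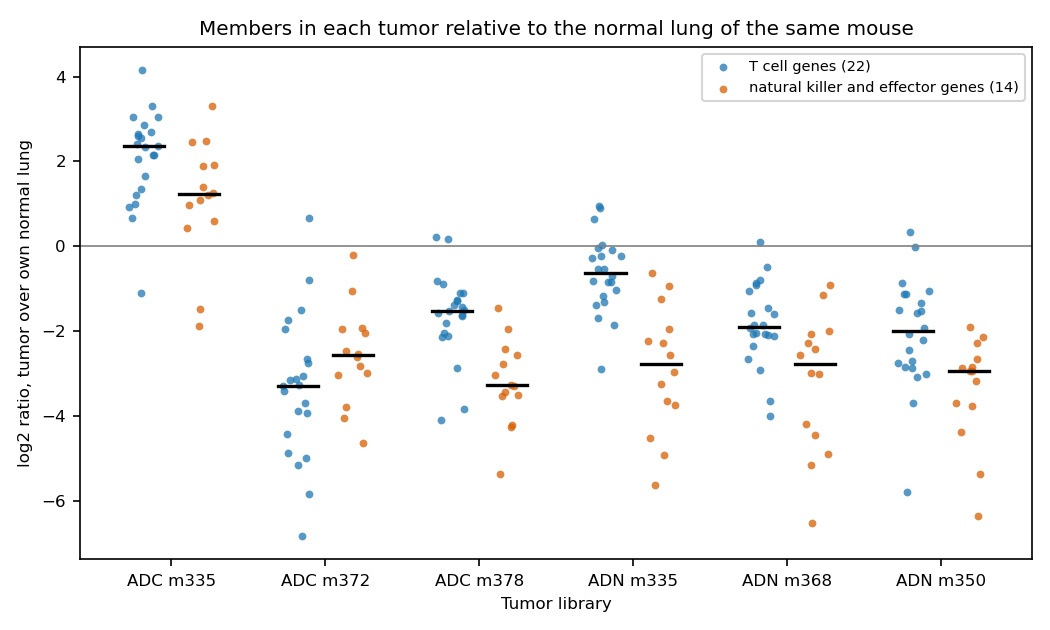
Log2 ratio of each member in a tumor over the normal lung of the same mouse (y axis, prior count of 2) for the 6 tumors (x axis), with 1 point per gene, blue for 22 T cell genes and orange for 14 natural killer and effector genes, and a black bar at each median. The medians are above 0 for ADC m335 (2.35 and 1.23) and below 0 for the other 5 tumors.

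The 2 tumors of mouse m335 shared an animal, a time and a normal lung and differed in every member. All 36 members were higher in its ADC tumor than in its ADN tumor, against 49.9% of all genes, with a median log2 difference of 3.0 (2.76 for T cell genes, 3.71 for natural killer and effector genes) and a range of 1.52 to 7.84, beside a median of 0 over all genes tested. These are 2 libraries, so the difference has no replicate check. Chemokines that draw T cells were also high in that ADC tumor. Cxcl9, Cxcl10 and Cxcl11, the ligands of the Cxcr3 receptor on activated T cells, had 481, 169 and 44.4 CPM there and at most 8.17, 10.9 and 0.434 CPM in the other 10 libraries. Cxcl13 and Ccl19, which organise lymphoid follicles and T cell zones, had 138 and 43.4 CPM there and at most 14.8 and 6.32 CPM elsewhere.

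Tested over all 6 tumors against the 5 normal lungs, with the mouse as a block, 2 of 35 members passed the threshold (adjusted p below 0.05), and both fell in tumors: Lef1 and Prf1. Among all 15175 genes tested, 7.91% were lower and 3.68% higher in tumors, so the count of members called was close to the background. An unadjusted p under 0.05 was reached by 16 of the 35. The share of all genes at that unadjusted level was not computed, so this count has no background beside it. The median log2 fold change was -1.87 over the members (-1.50 for T cell genes, -2.73 for natural killer and effector genes) and -0.03 over all genes. Ifng was the member left out by the filter on low counts. Without ADC m335, edgeR's test called 30 of 35 members lower (17 of 22 T cell genes and 13 of 13 natural killer and effector genes) and 0 higher, where 12.8% of all genes were lower. Without normal m335 it called 6 (4.93% of all genes lower). Leaving out any other single library gave 2.

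**Figure D3:**
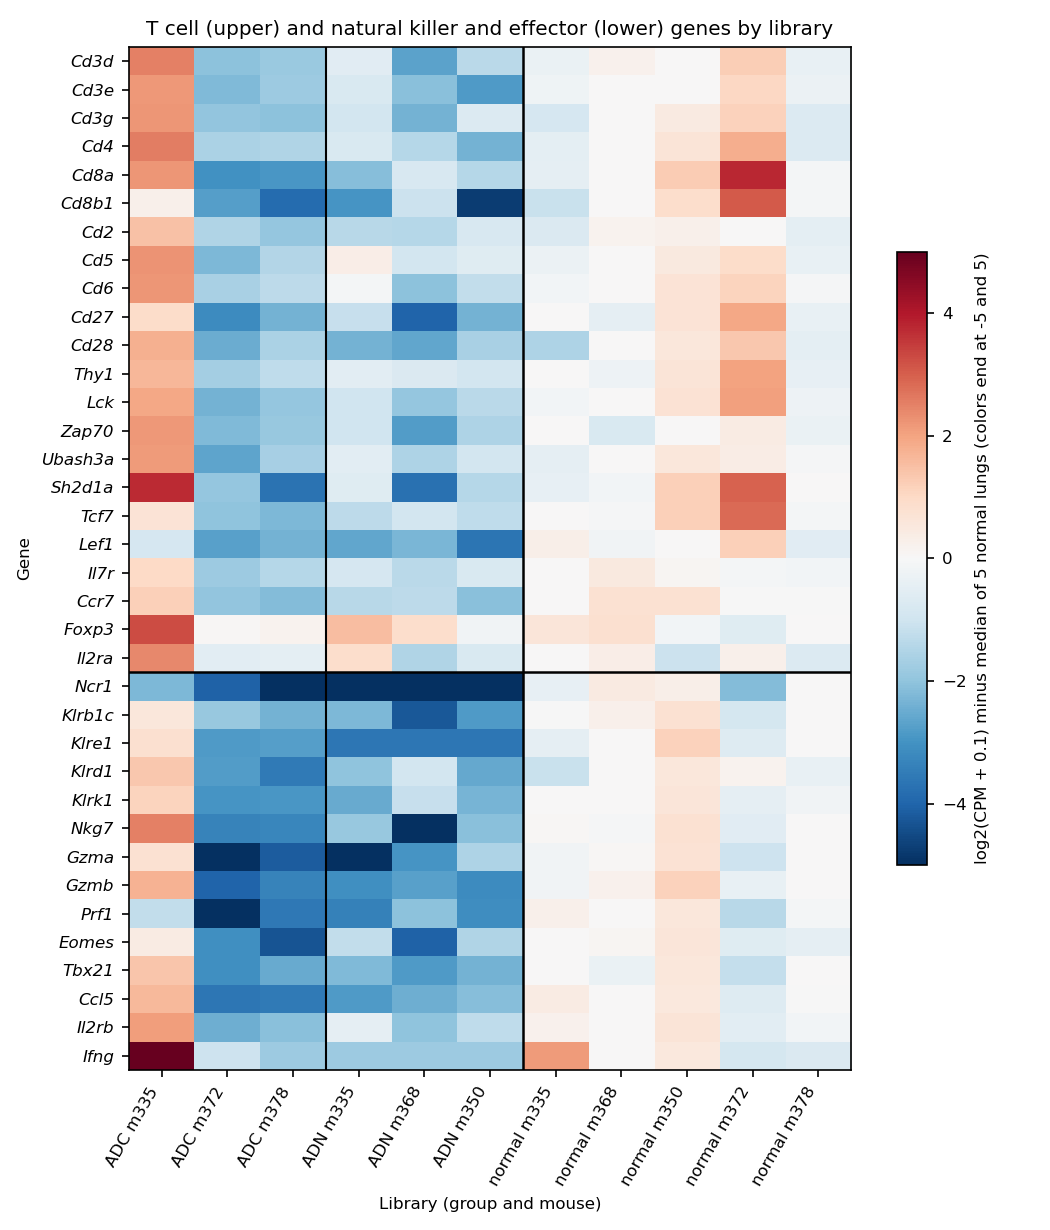
Level of each member (rows, 22 T cell genes above and 14 natural killer and effector genes below the line) in each library (columns, 3 ADC tumors, 3 ADN tumors, 5 normal lungs), as log2(CPM + 0.1) minus the median of the 5 normal lungs. ADC m335 is red for most rows, the other 5 tumors are blue for most rows, and normal m372 is red for many T cell genes.

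Lef1 and Tcf7 are transcription factors of naive and immature T cells. Lef1 (GRCm38 chromosome 3, 131110297 to 131224357) had 6.42, 1.68 and 2.13 CPM in the ADC tumors of mice m335, m372 and m378, 1.81, 2.30 and 0.821 CPM in the ADN tumors of mice m335, m368 and m350, and 13.9, 10.2, 11.5, 26.6 and 7.68 CPM in the normal lungs of mice m335, m368, m350, m372 and m378. Every tumor lay below every normal lung, ADC m335 included. Lef1 averaged 2.53 ± 1.98 CPM in tumors (SD, n = 6) and 14 ± 7.43 CPM in normal lungs (SD, n = 5). Its log2 fold change was -2.64 ± 0.50 (SE) with an adjusted p of 0.0110 by edgeR's quasi-likelihood test. Tcf7 had 67.2, 10.3 and 8.92 CPM in the ADC tumors, 16.9, 22.4 and 17.7 CPM in the ADN tumors and 42.4, 41.0, 96.5, 305 and 39.1 CPM in the normal lungs, with mice in the same order here and in all later lists. ADC m335 overlapped the normal lungs, and the 5 other tumors lay below all of them. Its log2 fold change of -1.94 ± 0.72 did not pass the threshold (adjusted p of 0.127 by edgeR's test).

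Prf1 encodes perforin, which forms the pores through which granzymes enter target cells. Prf1 (chromosome 10, 61297836 to 61304263) had 4.63, 0.185 and 0.829 CPM in the ADC tumors, 0.971, 2.58 and 1.18 CPM in the ADN tumors and 13, 11.0, 16.1, 4.09 and 10.1 CPM in the normal lungs. The only overlap between the groups was ADC m335 above normal m372. Prf1 averaged 1.73 ± 1.63 CPM in tumors (SD, n = 6) and 10.8 ± 4.42 CPM in normal lungs (SD, n = 5). Its log2 fold change was -3.13 ± 0.54 with an adjusted p of 0.00724 by edgeR's test. Both the Lef1 and the Prf1 call held in every alternative run for tumors against normal lungs, with adjusted p between 7.83e-07 and 0.0421 for Lef1 and between 2.97e-08 and 0.0343 for Prf1.

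Ncr1 encodes the activating receptor NKp46, which is close to restricted to natural killer cells and related innate lymphocytes. Ncr1 (chromosome 7, 4337724 to 4345164) had 0.811, 0.161 and 0.0395 CPM in the ADC tumors, 0 CPM in all 3 ADN tumors and 3.15, 5.84, 5.23, 0.863 and 4.26 CPM in the normal lungs. Every tumor lay below every normal lung, although the margin rests on 24 counts in ADC m335 against 19 in the smaller library of normal m372. The ADN tumors held 0 counts together, against 637 in the normal lungs. Set against a floor of 3 counts over the 3 ADN libraries, Ncr1 was at least 117-fold lower in ADN tumors, a bound that covers counting error only. In the fit of all tumors its log2 fold change of -5.21 ± 1.48 missed the threshold (adjusted p of 0.0553 by edgeR's test).

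The promoter windows of these 3 genes are printed because they are the members that lay below the own normal lung in 6 of 6 tumors. Each runs from 250 bases before to 50 bases after the start of a counted transcript and was read from RefSeq (GRCm38.p6), plus strand, 5′ to 3′. The windows are chr10:61297586-61297885 for Prf1, chr7:4337474-4337773 for Ncr1 and chr3:131112541-131112840 for Lef1. The Lef1 window sits at a transcript start inside the gene, since another counted Lef1 transcript begins upstream, at 131110297. It does not cover that start. Capitals mark the core motif of Runx factors, TGTGGT on the plus strand or its reverse complement ACCACA.
Prf1: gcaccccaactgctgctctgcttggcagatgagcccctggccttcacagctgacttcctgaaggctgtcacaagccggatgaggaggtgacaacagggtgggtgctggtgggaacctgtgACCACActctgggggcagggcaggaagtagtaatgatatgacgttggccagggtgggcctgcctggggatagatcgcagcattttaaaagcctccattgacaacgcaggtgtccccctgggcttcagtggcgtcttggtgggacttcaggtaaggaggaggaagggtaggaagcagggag
Ncr1: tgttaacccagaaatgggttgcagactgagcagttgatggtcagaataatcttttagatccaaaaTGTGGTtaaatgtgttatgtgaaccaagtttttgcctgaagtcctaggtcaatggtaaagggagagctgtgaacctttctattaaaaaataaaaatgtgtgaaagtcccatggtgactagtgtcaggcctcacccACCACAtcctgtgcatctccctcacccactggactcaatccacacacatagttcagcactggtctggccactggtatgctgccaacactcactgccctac
Lef1: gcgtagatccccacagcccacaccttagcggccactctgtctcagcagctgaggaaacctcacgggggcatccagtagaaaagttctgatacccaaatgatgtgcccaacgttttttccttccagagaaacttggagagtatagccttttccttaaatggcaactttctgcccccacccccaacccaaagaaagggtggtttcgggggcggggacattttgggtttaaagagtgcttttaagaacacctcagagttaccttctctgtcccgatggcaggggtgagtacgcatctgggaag
In Prf1 the motif starts 130 bases before the transcript start, in Ncr1 it starts 185 and 50 bases before it, and the Lef1 window holds no match. RefSeq windows at a counted transcript's start were found for 24 members. The Runx motif, searched on both strands, was in 7 of 11 windows of natural killer and effector genes (Ncr1, Klrb1c, Klrk1, Nkg7, Gzma, Gzmb and Prf1) and in 1 of 13 windows of T cell genes (Il7r), and in 16.8% of 32817 promoter windows of the same length. The T-box motif AGGTGTGA was in 1 window (Nkg7; 1.27% of all promoter windows) and the TCF/LEF motif CTTTGAT in 1 (Cd3d; 3.73%). A match is a string of letters in the window and does not show that a factor binds there.

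Genes of the T cell receptor complex and its coreceptors followed the common pattern. Cd3e, a signaling chain of the receptor (chromosome 9, 44998743 to 45009590), had 74.6, 3.53 and 4.62 CPM in the ADC tumors, 9.87, 3.87 and 2.28 CPM in the ADN tumors and 14.5, 16.7, 17.1, 34.8 and 13.5 CPM in the normal lungs. Cd3g, another such chain, had 79.4, 4.27 and 4.07 CPM in the ADC tumors, 9.20, 3.31 and 10.7 CPM in the ADN tumors and 9.50, 17.2, 23.7, 38.0 and 10.7 CPM in the normal lungs. For Cd3e all tumors but ADC m335 lay below all normal lungs, and for Cd3g ADN m350 also overlapped the normal lungs. Their log2 fold changes in tumors against normal lungs, -1.78 ± 0.85 and -1.30 ± 0.89, did not pass the threshold (adjusted p of 0.223 and 0.405 by edgeR's test). Without ADC m335 both were called lower, Cd3e at -2.04 ± 0.40 and Cd3g at -1.57 ± 0.44 (adjusted p of 0.00840 and 0.0350). Cd3d, a further chain, had 77.8 CPM in that tumor, 2.02 to 9.10 CPM in the other tumors and 10.5 to 32.1 CPM in the normal lungs.

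Cd4, the coreceptor of helper and regulatory T cells, had 110.2, 6.07 and 6.40 CPM in the ADC tumors, 10.8, 6.73 and 3.53 CPM in the ADN tumors and 13.2, 18.5, 29.0, 65.6 and 11.4 CPM in the normal lungs. Cd8a, a chain of the cytotoxic coreceptor, had 34.6, 0.830 and 0.908 CPM in the ADC tumors, 1.64, 4.26 and 2.68 CPM in the ADN tumors and 5.44, 7.43, 18.3, 101.6 and 7.02 CPM in the normal lungs. Cd8b1, the other chain, had 11.1, 1.31 and 0.553 CPM in the ADC tumors, 1.14, 4.47 and 0.250 CPM in the ADN tumors and 4.31, 9.42, 17.4, 79.4 and 8.70 CPM in the normal lungs. ADC m335 exceeded every normal lung for Cd4 and stayed below normal m372 for both Cd8 genes. Cd8b1 counts were fractional in 7 libraries, so some of its reads were shared with another sequence. The log2 fold changes of Cd4 (-1.44 ± 0.98), Cd8a (-2.18 ± 1.38) and Cd8b1 (-3.30 ± 1.32) did not pass the threshold, with adjusted p of 0.403, 0.361 and 0.151 by edgeR's test. Without ADC m335 all 3 were called lower, Cd8a at an adjusted p of 0.0499. With the normal lungs of mice m350 and m372 also left out and no block, 19 of 35 members were still called lower, 9 T cell genes and 10 natural killer and effector genes, where 7.87% of all genes were lower.

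Adhesion and costimulatory receptors varied in how far below the normal lungs they lay. Thy1, a surface glycoprotein of T cells that fibroblasts also carry, had 242, 23.4 and 31.2 CPM in the ADC tumors, 52.4, 46.1 and 40.7 CPM in the ADN tumors and 76.3, 64.3, 120.9, 306 and 58.0 CPM in the normal lungs. All tumors but ADC m335 lay below the normal lungs. Thy1 was not called with or without that tumor (log2 fold changes of -1.04 ± 0.69 and -1.32 ± 0.47, adjusted p of 0.386 and 0.0860 by edgeR's test). Cd27 and Cd28, costimulatory receptors, had 16.8 and 21.5 CPM in ADC m335, at most 3.88 and 2.01 CPM in the other tumors and at least 6.46 and 2.1 CPM in the normal lungs. The gene E130112N10Rik overlaps Cd27 and was counted at 69 reads over all 11 libraries. Cd2, an adhesion receptor, lay at 7.90 to 17.2 CPM in the other tumors and 18.5 to 36 CPM in the normal lungs. Cd5 and Cd6, which dampen receptor signaling, overlapped the normal lungs: in ADN m335 they had 13.7 and 10.7 CPM, against 8.70 and 10.4 CPM in its normal lung. Signaling genes Lck and Zap70, the kinases that start the receptor signal, reached 105.2 and 64.9 CPM in ADC m335 and at most 14 and 7.13 CPM in the other tumors, against at least 23.0 and 8.45 CPM in the normal lungs. Ubash3a, a phosphatase of the receptor pathway, had 13.2 CPM in that ADC tumor, 0.392 to 2.01 CPM in the other tumors and 2.13 to 4.39 CPM in the normal lungs. Sh2d1a, an adaptor of lymphocyte activation, had the highest ratio of any member to the own normal lung in that ADC tumor, a log2 ratio of 4.15.

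Homing and survival genes showed the same split among the tumors. Ccr7, the chemokine receptor that leads naive T cells and dendritic cells to lymph nodes, had 79.1, 8.58 and 7.66 CPM in the ADC tumors, 13.2, 13.9 and 7.93 CPM in the ADN tumors and 34.3, 58.5, 57.7, 33.6 and 34.1 CPM in the normal lungs. Il7r, the receptor for the survival cytokine of naive and memory T cells, had 38.3, 5.35 and 7.03 CPM in the ADC tumors, 10.7, 7.43 and 11.3 CPM in the ADN tumors and 19.1, 26.9, 20.6, 18 and 17.2 CPM in the normal lungs. For both genes ADC m335 was the highest of all libraries and the other 5 tumors lay below every normal lung. Unlike Tcf7 and Cd8b1, neither was highest in normal m372. In tumors against normal lungs neither passed the threshold (Ccr7 at -1.74 ± 0.61 and Il7r at -1.05 ± 0.44, adjusted p of 0.106 and 0.172 by edgeR's test), and both were called lower without ADC m335 (-2.04 ± 0.21 and -1.27 ± 0.22, adjusted p of 0.000397 and 0.00395).

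Members for which some tumor other than ADC m335 overlapped the normal lungs were Cd3g, Cd8b1, Cd5, Cd6, Klrd1, Il2rb and the regulatory T cell genes Foxp3 and Il2ra. Foxp3, the factor that defines regulatory T cells, had 43.1, 4.57 and 4.90 CPM in the ADC tumors, 12.9, 8.13 and 3.86 CPM in the ADN tumors and 6.66, 7.65, 3.93, 2.86 and 4.38 CPM in the normal lungs. It lay above the own normal lung in 5 of 6 tumors and the groups overlapped. Foxp3 was not called (log2 fold change of 0.62 ± 0.44, adjusted p of 0.422 by edgeR's test), also without ADC m335 (0.42 ± 0.26, adjusted p of 0.294). Il2ra, the high-affinity chain of the interleukin 2 receptor, had 27.0 CPM in ADC m335, 1.71 to 9.37 CPM in the other tumors and 2.32 to 6.40 CPM in the normal lungs, with a log2 fold change of -0.01 ± 0.55 that turned positive under several alternatives.

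Relative to Cd3e in the same library, Foxp3 was higher in all 6 tumors than in any normal lung. The Foxp3 to Cd3e ratio was 0.578, 1.29 and 1.06 in the ADC tumors, 1.30, 2.1 and 1.69 in the ADN tumors and 0.461, 0.458, 0.230, 0.0822 and 0.324 in the normal lungs. It was the only one of 35 members whose ratio to Cd3e did not overlap between tumors and normal lungs, where 0.534% of all genes lay higher and 0.119% lower without overlap. The ratio was picked after its values were seen and was not tested. It is lowest in the normal lungs of mice m372 and m350, which carried the thymus genes, and it overlapped when Cd3g or Cd3d took the place of Cd3e, with 5 of 6 tumors above the own normal lung in each case. Foxp3 counts are uncertain, since 1435 bases of the gene overlap Ccdc22 on the opposite strand. The strand setting of the counting is not given in the sources used here, and the counts were fractional. The Ccdc22 to Cd3e ratio was 0.224 in ADC m335, 1.39 to 12.0 in the other tumors and 0.570 to 1.68 in the normal lungs. Foxp3 relative to Ccdc22 overlapped (0.141 to 2.58 in tumors, 0.144 to 0.351 in normal lungs), with 4 of 6 tumors above the own normal lung. The part of Ccdc22 reads in the Foxp3 counts was not tested. The ratio of Il2ra to Cd3e was above that of the own normal lung in 6 of 6 tumors but overlapped between groups (0.362 to 1.28 in tumors, 0.136 to 0.384 in normal lungs). Some genes outside the 36 were looked up after these values were seen. Of these, Icos and Ccr8, a costimulatory and a chemokine receptor of activated and regulatory T cells, also did not overlap. The Icos ratio was 0.607 to 1.04 in tumors and 0.151 to 0.324 in normal lungs. That of Ccr8 was 0.0654 to 1.16 in tumors and 0.00522 to 0.0529 in normal lungs. The Ccr8 margin was narrow, with ADC m372 (153 counts of Cd3e) at 0.0654 and normal m335 at 0.0529. Ctla4, an inhibitory receptor of the same cells, overlapped (0.0631 to 0.442 in tumors, 0.0287 to 0.194 in normal lungs) and lay below the own normal lung in ADN m368. Of the 35 members, Foxp3, Il2ra and Cd5 had a ratio to Cd3e above the own normal lung in 6 of 6 tumors (2.31% of all genes), and Cd27, Lef1 and Gzmb had one below it in 6 of 6 (0.356% of all genes).

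**Figure D4:**
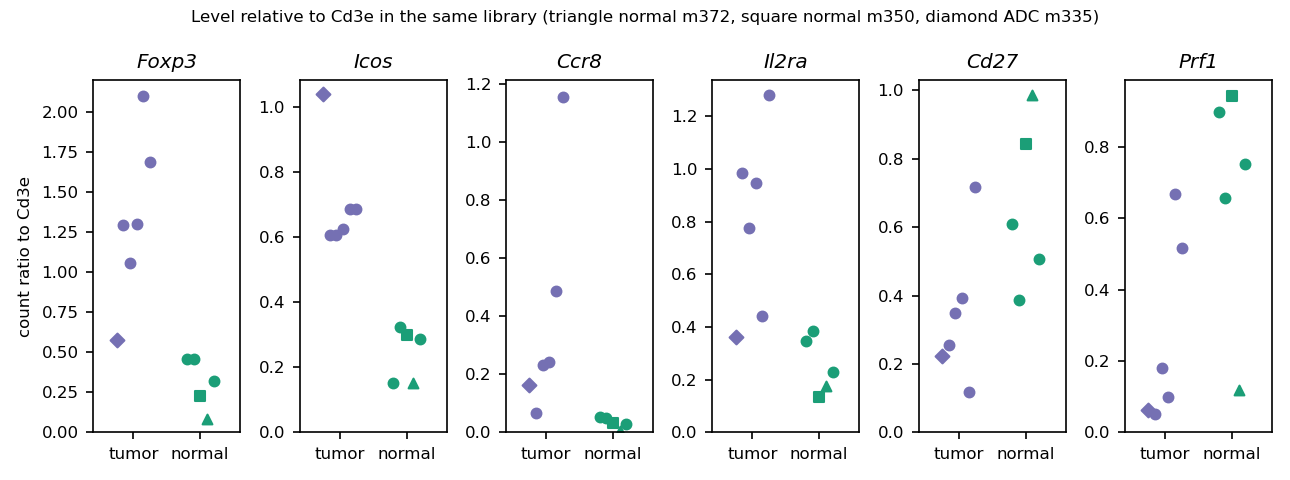
Ratio of the counts of Foxp3, Icos, Ccr8, Il2ra, Cd27 and Prf1 to those of Cd3e in the same library (y axis, linear from 0), with 1 point per library, 6 tumors left and 5 normal lungs right. Foxp3, Icos and Ccr8 do not overlap between tumors and normal lungs, and the diamond (ADC tumor of mouse m335) is the lowest tumor for Foxp3.

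Granule genes of cytotoxic cells were low in 5 tumors. Gzma, a granzyme, had 33.3, 0.323 and 0.987 CPM in the ADC tumors, 0.502, 2.44 and 6.57 CPM in the ADN tumors and 17.0, 20.3, 32.2, 9.53 and 19.5 CPM in the normal lungs. Gzmb, the granzyme that triggers caspases, had 16.8, 0.208 and 0.395 CPM in the ADC tumors, 0.502, 0.663 and 0.464 CPM in the ADN tumors and 4.37, 5.69, 11.0, 3.72 and 4.89 CPM in the normal lungs. Nkg7, a granule membrane protein, had 64.9, 1.04 and 1.11 CPM in the ADC tumors, 3.01, 0.244 and 2.61 CPM in the ADN tumors and 11.8, 10.9, 19.5, 7.72 and 11.3 CPM in the normal lungs. For all 3 genes ADC m335 was the highest library and the other 5 tumors lay below every normal lung. In that ADC tumor the granule genes were out of step with each other: Gzmb and Nkg7 lay above its normal lung by log2 ratios of 1.93 and 2.46, while Prf1 lay below it at -1.47. None of the 3 passed the threshold over all tumors (log2 fold changes of -2.87 ± 1.11, -3.07 ± 1.19 and -2.73 ± 1.17, adjusted p of 0.140, 0.141 and 0.181 by edgeR's test). Without that tumor they were called lower at -3.79 ± 0.46, -3.65 ± 0.41 and -3.15 ± 0.46 (adjusted p of 0.000812, 0.000534 and 0.00174).

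Natural killer receptors other than Ncr1 were low in the tumors other than ADC m335. Klrb1c, which encodes the NK1.1 receptor, had 3.62, 0.577 and 0.395 CPM in the ADC tumors, 0.435, 0.0349 and 0.250 CPM in the ADN tumors and 2.38, 2.89, 4.21, 1.27 and 2.42 CPM in the normal lungs. Its counts were fractional in all 11 libraries, so some of its reads were shared with another sequence. Klre1, a lectin-like receptor, had 0 counts in the 3 ADN tumors and 202 in the normal lungs, at least 37.1-fold lower by the same floor of 3 counts over the group. In the ADC tumors Klre1 had 1.99, 0.0692 and 0.0790 CPM, against 0.681 to 2.60 CPM in the normal lungs. Klrd1 and Klrk1, the CD94 and NKG2D receptors, had 11.0 and 13.5 CPM in ADC m335 and at most 2.23 and 2.76 CPM in the other tumors, against at least 1.93 and 4.49 CPM in the normal lungs. Tumors other than ADC m335 thus overlapped the normal lungs for Klrd1 and not for Klrk1.

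Effector regulators and cytokines included both abundant and scarce RNAs. Ccl5, a chemokine of activated T and natural killer cells, had 165 CPM in ADC m335, 4.36 and 4.58 CPM in the ADC tumors of mice m372 and m378, 7.56, 9.94 and 12.4 CPM in the ADN tumors and 72.1, 53.9, 78.2, 34.8 and 53.7 CPM in the normal lungs. Il2rb, a chain of the interleukin 2 and 15 receptors, had 96.8, 4.06 and 5.21 CPM in the ADC tumors, 16.9, 5.62 and 9.39 CPM in the ADN tumors and 26.1, 22.8, 35.6, 15.9 and 20.5 CPM in the normal lungs. Ifng, the interferon of T and natural killer cells, had 14.7, 0.0692 and 0 CPM in the ADC tumors, 0 CPM in the 3 ADN tumors and 1.42, 0.249, 0.402, 0.0908 and 0.114 CPM in the normal lungs. Ifng lay at 1.42 CPM or below in every library but ADC m335. Its 0 counts in the ADN tumors, against 77 in the normal lungs, set it at least 14.2-fold lower there. That bound pools the normal lungs and rests mainly on normal m335, which held 50 of the 77 counts. Each other normal lung held 2 to 13 counts. Ccl5 and Il2rb did not pass the threshold over all tumors (-2.32 ± 0.86 and -1.40 ± 0.64, adjusted p of 0.124 and 0.204 by edgeR's test) and were called lower without that tumor (-2.93 ± 0.20 and -1.66 ± 0.25, adjusted p of 0.000120 and 0.00186). Tbx21 and Eomes, the T-box factors of effector and natural killer cells, had 15.5 and 3.65 CPM in ADC m335, at most 1.2 and 1.10 CPM in the other tumors and at least 2.54 and 1.73 CPM in the normal lungs.

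**Figure D5:**
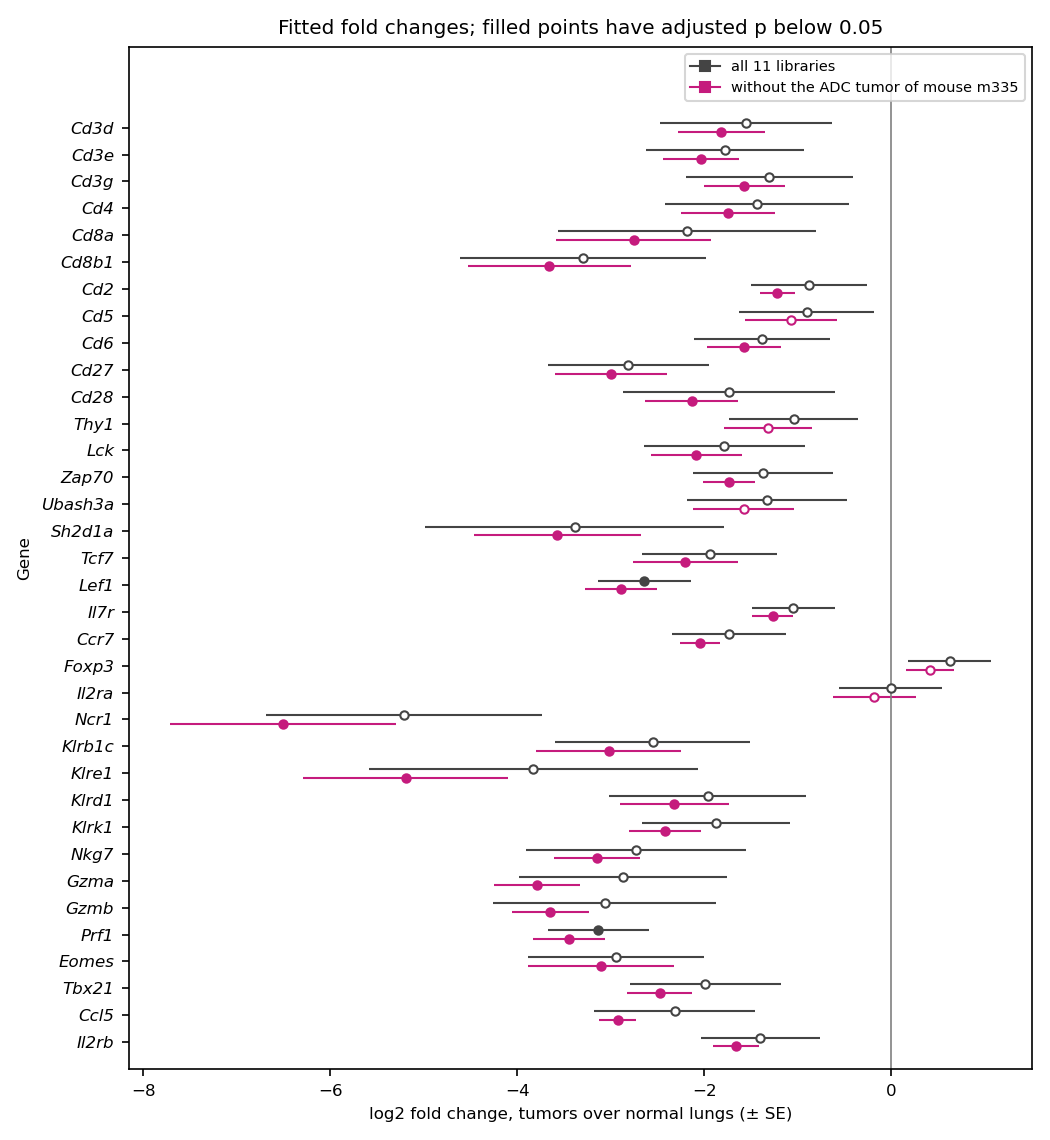
Fitted log2 fold change of tumors over normal lungs with its SE (x axis) for the 35 members tested (rows), over all 11 libraries (grey) and without ADC m335 (pink), with filled points where the adjusted p is below 0.05. Only Lef1 and Prf1 are filled in grey, and 30 of 35 are filled in pink, all of them below 0.

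Per kilobase of transcript, the members' median levels in normal lungs ran from 101.2 CPM per kilobase for Ccl5 to 0.206 for Ifng. Thy1 (44.0), Cd2 (26.3), Gzma (22.2) and Tcf7 (20.1) came next after Ccl5. Over the 5 normal lungs the ranges of Ccl5 and Thy1 overlapped, and so did those of Cd2 with Gzma and of Gzma with Tcf7. Those of Thy1 (33.4 to 176) and Cd2 (16 to 31.2) did not. In the tumors the order of the medians began with Thy1 (25.0 CPM per kilobase), Ccl5 (16.5), Cd2 (9.85) and Tcf7 (8.21). Gzma stood at a tumor median of 1.95 CPM per kilobase.

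ADN tumors alone, against the normal lungs, had 5 of 35 members lower and 0 higher, where 4.84% of all genes were lower and 2.68% higher. Lef1 fell by 3.2 ± 0.63 on the log2 scale, Ccr7 by 2.61 ± 0.62, Klrb1c by 4.33 ± 0.96 and Prf1 by 3.53 ± 0.75 (adjusted p of 0.0250, 0.0430, 0.0348 and 0.0304 by edgeR's test). Ncr1 was also called (adjusted p of 0.0232), with 0 counts in ADN tumors. These calls depend on single libraries. The count was 0 without ADN m335, where 0 of all genes were called. It was also 0 without ADN m368 or its normal lung (1.94% and 1.93% of all genes lower) and without ADN m350 or its normal lung (1.03% and 0.937%). Over all alternatives the log2 fold change stayed between -3.73 and -2.64 for Lef1 and between -4.26 and -2.78 for Prf1. The count was 3 without ADC m378 or its normal lung (3.03% and 3% of all genes), 13 without normal m335 (4.21%) and 16 without ADC m335, where 7.81% of all genes were lower. All 11 libraries share 1 estimate of the spread in this fit.

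ADC tumors alone, against the normal lungs, had 0 of 35 members called by edgeR's test, where 3.98% of all genes were lower and 1.01% higher. Of the 35 members, 4 had an unadjusted p under 0.05 (share of all genes not computed), and DESeq2 called 4 lower (8.61% of all genes). The members with the lowest adjusted p were Prf1 (-2.80 ± 0.71, 0.0684) and Lef1 (-2.16 ± 0.60, 0.0939). Without ADC m335, 16 of 35 were called lower, 10 T cell genes and 6 natural killer and effector genes, where 4.67% of all genes were lower. That fit has 2 ADC tumors, 1 of them set against normal m372, which held the thymus genes. Without both that normal lung and ADC m335, the blocked fit called 0 of 35 members and 0 of all genes, since 1 ADC tumor with its own normal lung remained. The same libraries without the block gave 26 of 35 lower, where 7.45% of all genes were lower.

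Between the tags, 0 members were called between ADC and ADN tumors by edgeR's test, and 0 of all 15175 genes. Of the 35 members, 6 had an unadjusted p under 0.05 (share of all genes not computed). DESeq2 called 1, Ncr1, higher in ADC tumors (0.369% of all genes). The median log2 difference of the members, ADC minus ADN, was 1.62 with all libraries and -0.64 without ADC m335. Without that tumor the difference was negative for 29 of 35 members, and again 0 members were called. The median over all genes in that fit was 0.04. The share of all genes with a negative difference was not computed. The ADC against ADN comparison and both comparisons with the normal lungs share libraries.

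Other genes of the same pathways were read against the 7.91% of all genes lower and 3.68% higher in tumors against normal lungs. Of 20 further T cell receptor signaling genes 1 was lower and 0 higher, with a median log2 fold change of -1.04. It was Txk, a kinase of T and natural killer cells, at -2.25 ± 0.62 (adjusted p of 0.0482 by edgeR's test). Of 22 further natural killer and cytotoxic genes tested 2 were lower and 0 higher (median -1.35): Txk again, and S1pr5, the receptor by which natural killer cells leave lymph nodes, at -3.15 ± 0.69 (adjusted p of 0.0197). Of 18 homing and recruiting genes tested 3 were lower and 1 higher. S1pr1, which lets lymphocytes leave lymphoid organs and is also abundant on endothelium, fell by 2.43 ± 0.19 and Ccl21a, a Ccr7 ligand, by 0.86 ± 0.18 on the log2 scale (adjusted p of 0.000464 and 0.0179). Ccl17, a chemokine of dendritic cells that draws Ccr4-bearing T cells, rose by 1.31 ± 0.32 (adjusted p of 0.0331). Of 13 lymphocyte cytokine genes tested, Il18r1, a chain of the interleukin 18 receptor, rose by 0.94 ± 0.21 (adjusted p of 0.0222). Of 10 innate lymphoid and gamma delta T cell genes, Sox13 was lower at -1.37 ± 0.28 (adjusted p of 0.0157). None of 12 B cell genes was called (median -1.48).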

How the data were processed

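Poly-A RNA was sequenced on the Ion Proton platform from samples whose integrity number was 7 or above, per the labels' protocols. The submitters' processing notes name STAR 2.4.1d, Bowtie2 2.1.0, Partek and the mm10 build; which tool did what, the transcript annotation and the strandedness of counting were not given in the sources used here. The authors deposited expected counts, not normalized, for 36285 transcripts in 11 libraries. Transcript counts were summed by gene symbol to 24515 genes (59 rows for the 36 members) and rounded to whole numbers. Between 78.4% and 86.2% of gene sums were whole within 0.01 before rounding. Start positions of 21 of 36 members equal those of RefSeq GRCm38.p6, as do the ends of 20 once 1 base is taken off, which was done for all printed ends; the other members have other bounds there.

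Genes were filtered with filterByExpr, which left 15175 genes with 99.9% of the counts, scaled by TMM and fitted with edgeR 4.0.16's quasi-likelihood model (robust) in R 4.3.3, with the mouse as a fixed block. Tumors were compared with normal lungs in a fit with 2 groups, and ADN with normal, ADC with normal and ADC with ADN in a fit with 3. Tests were two-sided, with Benjamini-Hochberg adjustment over all genes tested and a threshold of 0.05. Levels are CPM on TMM-scaled sizes, and tumor by tumor log2 ratios use a prior count of 2. Labels name 5 mice, and 2 of the 6 tumors came from mouse m335. The SD over tumors thus mixes spread between and within animals. The SE of a fit with the mouse block reflects the spread left after mouse effects. The fit with 2 groups was tested on simulated counts with known changes. The simulation held no mouse effects and no outlying library, so it does not bear on how single libraries shift the calls. DESeq2 1.42.0 was an alternative, beside other scalings, no filter, no block, each library or mouse left out, and 7-month mice only.

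Tumors and normal lungs are paired because the labels give them the same mouse. As a check, the deviations of each tumor and its own normal lung from their group means correlated at -0.0444, -0.0367 and 0.254 for the ADC tumors of mice m335, m372 and m378 and at 0.240, 0.109 and 0.00493 for the ADN tumors of mice m335, m368 and m350.

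The members and lists were chosen with earlier results of these data known. Values in every library are given for 18 members named by a rule and for every member called in any comparison; other members are given by range. Of the other lists, genes called in tumors against normal lungs were to be named, at most the 6 of largest change per list; lists of other tissues are given by their sums. Some genes of those lists are not reported here. Intervals and floors cover counting error only.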

Additional observations from a re-analysis of the deposited data

Results flagged for a closer look

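In a group of 6 tumors or 5 normal lungs, a library was marked when the gap to its nearest neighbor took up more of the group's range than chance allows in about 1 of 20 groups. Of 40 such groups over 20 members, 25 held a marked library. The rule was applied to CPM without a log. The share of all genes that it marks was not computed, so these counts have no background beside them. The groups are not independent, since the members rise and fall together across these libraries.

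ADC m335 was marked among the tumors for 18 members. For T cell genes it had Cd3e at 74.6, Cd3g at 79.4, Cd4 at 110, Cd8a at 34.6, Tcf7 at 67.2, Lef1 at 6.42, Il7r at 38.3, Ccr7 at 79.1, Foxp3 at 43.1 and Thy1 at 242 CPM. For natural killer and effector genes it had Ncr1 at 0.811, Klrb1c at 3.62, Gzma at 33.3, Gzmb at 16.8, Nkg7 at 64.9, Ccl5 at 165, Il2rb at 96.8 and Ifng at 14.7 CPM. Its B cell genes, its Cxcr3 ligands and its low alveolar type 2 genes moved with these values, and their part in them was not tested.

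Normal m372 was marked among the normal lungs for 5 T cell genes: Cd3e at 34.8, Cd8a at 102, Cd8b1 at 79.4, Tcf7 at 305 and Thy1 at 306 CPM. Its thymus genes moved with these values. Normal m350 was marked for Gzmb at 11.0 CPM and normal m335 for Ifng at 1.42 CPM.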

How the results depend on the processing

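Every count here is of members lower in tumors, with the share of all genes lower in brackets. In tumors against normal lungs 2 members were called (7.91%). DESeq2's Wald test called 20 (13.2%), no replicate block 4 (8.82%), 7-month mice only 27 (11.2%), and leaving out 1 library or mouse gave 2 to 30, with 30 without ADC m335 (12.8%), 29 without mouse m335 (9.63%) and 6 without normal m335 (4.93%). ADN tumors gave 5 (4.84%), against 28 by DESeq2 (12.3%) and 0 to 16 with 1 library or mouse left out. The 7-month mice hold only 1 ADN tumor, that of mouse m350, so no count is given for ADN tumors there. The members' median log2 fold change in that fit was -2.59. ADC tumors gave 0 (3.98%), against 4 by DESeq2 (8.61%), 1 without the replicate block (6.57%), 23 in 7-month mice (11.7%) and 0 to 16 with 1 library or mouse left out. ADC against ADN gave 0, and 1 (higher) by DESeq2. Alternatives added after seeing the data left out normal m372 and ADC m335: tumors, ADN and ADC tumors then gave 22, 11 and 0 members with the mouse block (9.19%, 4.77% and 0%), 28, 20 and 26 without it (10.8%, 8.32% and 7.45%), and 19, 11 and 17 with normal m350 also left out and no block (7.87%, 5.33% and 5.11%). The cause of these shifts was not tested, except that smaller sets leave fewer pairs of tumor and normal lung. Log2 fold changes turned positive without the replicate block for Cd3d (0.03), Cd5 (0.14), Zap70 (0.06) and Il2ra (0.81). Il2ra, at -0.01 with all libraries, was 0.01 with DESeq2's size factors and Wald test, 0.07 without normal m372, ADC m335 and the block, and -0.53 to 0.45 with 1 library or mouse left out. Library totals moved the median of all genes to -0.22 and called 3, 7 and 0 members in tumors, ADN and ADC tumors against normal lungs (11.3%, 6.97% and 5.39%). They left the tumor by tumor medians between -3.30 and 1.90, and a prior count of 0.5 left them between -3.15 and 2.0, each with the same sign as before. Of the fold changes of single members under the alternatives, 800 kept their direction and side of the threshold, 168 newly passed it, 58 no longer passed it and 14 changed sign. These counts pool tumors and ADN tumors against normal lungs. All 58 that no longer passed were in the ADN comparison, for its called members Lef1, Ccr7, Ncr1, Klrb1c and Prf1. All 14 changes of sign were in tumors against normal lungs. Depth limits Ncr1, Klre1 and Ifng, which had 0 counts in ADN tumors.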
